A study of Mus musculus with 8 samples.

Results

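The 10 genes described here take up, store, export and recycle iron and heme: the transferrin receptor Tfrc, the iron transporters Slc11a1 and Slc11a2, the exporter Slc40a1, the ferritin chains Fth1 and Ftl1, the ferritin cargo receptor Ncoa4, the iron regulatory protein Ireb2, the heme oxygenase Hmox1 and the biliverdin reductase Blvrb. They were chosen by name from the 24421 gene symbols of the deposited count table, and all 10 passed the filter on low counts that left 13722 genes for testing. These genes and the lists used below were chosen with earlier results of these data known. Their counts beside the shares of all tested genes are therefore descriptive. Read counts came from RNA sequencing of mouse bone marrow cells of the strain C57BL/6 that carry MLL-AF10, a leukaemia fusion of the genes Kmt2a and Mllt10. There were 4 groups of 2 libraries. MATIP cells carry MLL-AF10, Tip60 flox/flox and Cre-ERT2, a recombinase that 4-hydroxytamoxifen (4-OHT) activates, and were given 100 nM 4-OHT or the solvent ethanol (EtOH) for 4 days. MAflox cells, an MLL-AF10 flox line, were given the same 4-OHT or EtOH. The labels do not state whether MAflox cells carry Cre-ERT2, how many clones or animals a line came from, or whether the libraries of a group were separate cultures, so p-values measure the spread between these libraries, which may be technical. The growth medium of both lines was methylcellulose, and GM-CSF, IL-3 and SCF were added.

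Iron enters most cells bound to transferrin through Tfrc, leaves the endosome through Slc11a2 (DMT1), and is held in the cytosol in ferritin, a shell of heavy (Fth1) and light (Ftl1) chains. Macrophages also take in heme from old red cells, open its ring with Hmox1, reduce the biliverdin that results, store the freed iron in ferritin and export it through ferroportin (Slc40a1). Iron regulatory proteins, one of them the product of Ireb2, bind hairpins called iron-responsive elements when iron is scarce. In the 5′ untranslated region of ferritin mRNAs this binding blocks translation, and in the 3′ untranslated region of the Tfrc mRNA it protects the transcript from decay.

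The elements of the ferritin and Tfrc transcripts are shown because the level of these mRNAs and their translation are set by different steps, and only the level was measured here. They were found in the GENCODE M21 transcripts (mm10) as the loop CAGTGN, with N any base but G, between arms of 5 paired bases. A C just before the first arm was also required, and G-T pairs were allowed. The loop letters are in capitals. Fth1 and Ftl1 held 1 element each in the 5′ untranslated region, and Tfrc held 4 in the 3′ untranslated region. The 5 letters on each side of the loop are the same in both ferritin elements.
Fth1, chr19:9982732-9982761, plus strand: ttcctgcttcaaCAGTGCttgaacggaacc
Ftl1, chr7:45459778-45459807, minus strand: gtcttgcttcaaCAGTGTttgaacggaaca
Tfrc element 1, chr16:32631219-32631248, plus strand: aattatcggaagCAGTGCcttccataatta
Tfrc element 2, chr16:32631598-32631627, plus strand: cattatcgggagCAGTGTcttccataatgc
Tfrc element 3, chr16:32631663-32631692, plus strand: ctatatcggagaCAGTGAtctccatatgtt
Tfrc element 4, chr16:32631710-32631739, plus strand: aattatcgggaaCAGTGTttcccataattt

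Library totals were 41101309 to 57312490 counts. Levels are given as CPM, counts scaled to a common library size with TMM factors, and fold changes are log2 of 4-OHT over EtOH with their standard error (SE) from the edgeR quasi-likelihood test. A gene was called at a Benjamini-Hochberg adjusted p below 0.05 over all tested genes. Kat5, the gene of Tip60, had 8.22 ± 0.154 CPM in MATIP 4-OHT cells and 41.2 ± 0.100 CPM in MATIP EtOH cells, and 60.0 ± 3.55 CPM in MAflox 4-OHT cells and 42.4 ± 1.78 CPM in MAflox EtOH cells (SD, n = 2 each). Markers of mature phagocytes moved with treatment in both lines. The 14 macrophage markers summed to 23124 to 24166 CPM in MATIP 4-OHT cells and 435 to 474 CPM in MATIP EtOH cells, and to 5119 to 5212 CPM in MAflox 4-OHT cells and 272 to 292 CPM in MAflox EtOH cells. All 11 that were tested rose in both lines, while C1qa was at 0 counts in every library. C1qb and C1qc were at 0 counts in every MAflox library, and C1qb had 4 and 24 counts in MATIP 4-OHT libraries. The 11 neutrophil markers found in the table summed to 33699.6 to 37258 CPM in MATIP 4-OHT cells and 751 to 888 CPM in MATIP EtOH cells, and to 49137 to 52543 CPM in MAflox 4-OHT cells and 215 to 219.9 CPM in MAflox EtOH cells. The 9 mast cell and basophil markers summed to 178 to 183 CPM in MATIP 4-OHT cells and 105 to 116 CPM in MATIP EtOH cells, and to 119.5 to 124 CPM in MAflox 4-OHT cells and 129 to 131 CPM in MAflox EtOH cells. These sums do not show how the single markers moved, and 4 of the 9 were at 0 counts in MATIP 4-OHT cells. Of 7 tested, 2 rose and 2 fell in MATIP cells, where 37.5% of all tested genes rose and 38.6% fell. In MAflox cells 5 rose and 1 fell, where 33.1% of all tested genes rose and 32.1% fell. The part of these shifts in the results that follow was not tested, and in bulk RNA fewer cells of a type and less RNA per cell cannot be told apart. Erythroid cells, the largest users of iron in bone marrow, left little trace: the 4 globin genes listed, Slc4a1 and Epb4.2 were at 0 counts in all 8 libraries, and the 13 markers in the table summed to 2.80 to 9.68 CPM. How reads with several matches were counted is not stated, so the globin counts and this sum are uncertain to that extent.

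After 4-OHT, storage, export and heme breakdown genes rose in both lines, and the uptake genes Tfrc and Slc11a2 differed by at most 1.39-fold. In MATIP cells 7 of the 10 genes rose, 2 fell and 1 was not called, where 37.5% of all tested genes rose, 38.6% fell and 76.1% were called either way. In MAflox cells 8 rose and 2 fell, where 33.1% of all tested genes rose, 32.1% fell and 65.2% were called. Rises of at least 2-fold were made by the same 6 genes in both lines (Fth1, Ftl1, Slc40a1, Hmox1, Blvrb and Slc11a1), where 22.6% of tested genes rose that far in MATIP cells and 13.7% in MAflox cells. None of the 10 fell by 2-fold, where 14.1% of tested genes did so in MATIP cells and 8.29% in MAflox cells. The median log2 fold change of the 10 genes was 2.68 in MATIP cells and 1.33 in MAflox cells, beside 0.00 and 0.02 over all tested genes.

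**Figure D1:**
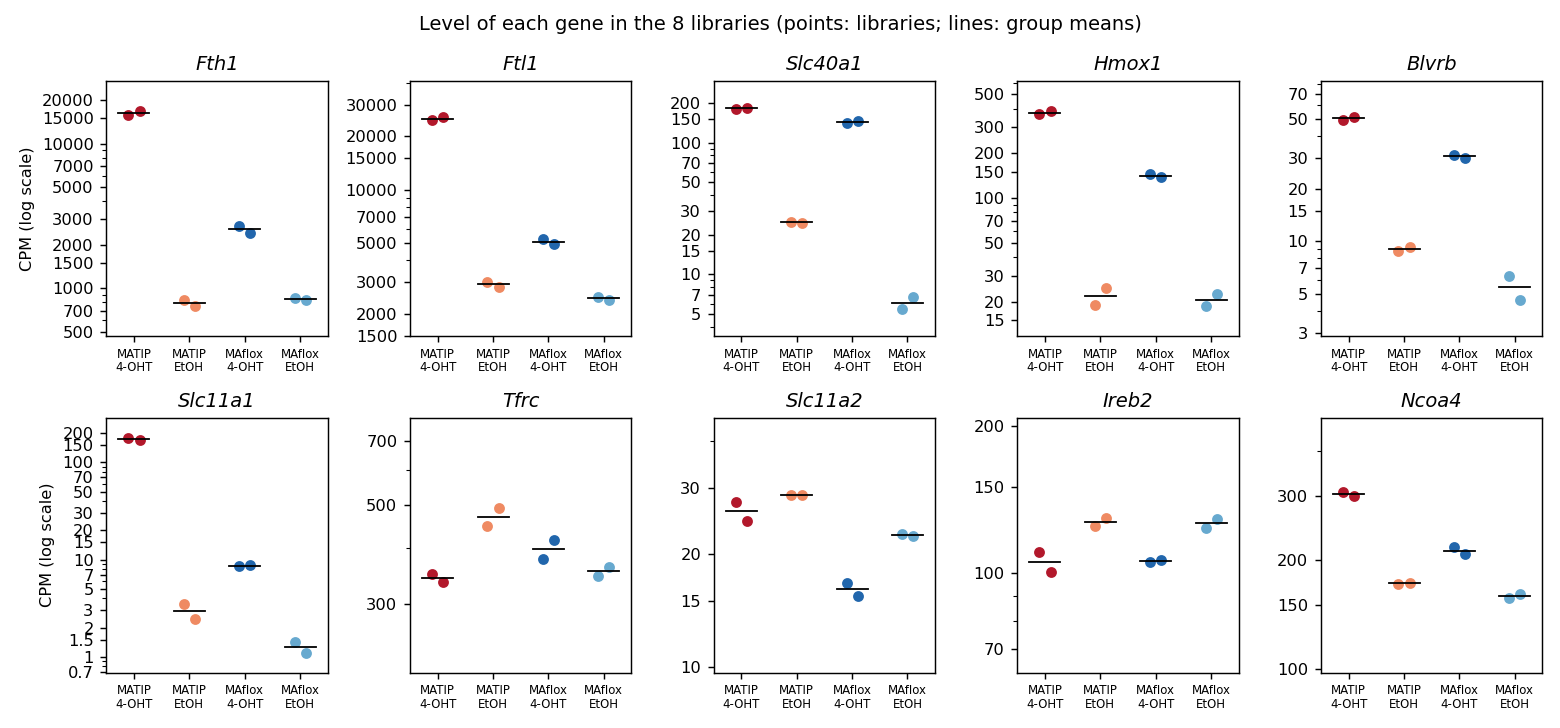
Level of each of the 10 genes in CPM (log axis, a separate range per gene) in MATIP and MAflox cells given 4-OHT or EtOH. Points are the 2 libraries of a group and lines are group means. Fth1, Ftl1, Slc40a1, Hmox1, Blvrb and Slc11a1 lie higher in both 4-OHT libraries than in both EtOH libraries of each line.

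Per length of transcript the ferritin chains had the highest levels of the 10 genes in every group. Fth1 (chr19:9980598-9985098, plus strand) encodes the heavy chain, which oxidises ferrous iron so that it can be stored. It had 15828 and 16917 CPM in MATIP 4-OHT libraries, against 825 and 750.5 CPM in MATIP EtOH libraries. MAflox libraries held 2707 and 2425 CPM with 4-OHT, against 852 and 834 CPM with EtOH. The treated libraries lay above the EtOH libraries in both lines, and the MATIP 4-OHT libraries lay far above all others. The log2 fold change was 4.38 ± 0.07 in MATIP cells, or 20.8-fold (adjusted p = 3.62e-20), and 1.61 ± 0.06 in MAflox cells, or 3.05-fold (adjusted p = 5.80e-14).

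Ftl1 (chr7:45457944-45459884, minus strand) encodes the light chain, which favours formation of the iron core. It had 24691 and 25622 CPM in MATIP 4-OHT libraries, against 3030.3 and 2822 CPM in MATIP EtOH libraries. In MAflox cells the values were 5247 and 4948 CPM with 4-OHT, against 2489.8 and 2395 CPM with EtOH. The groups did not overlap. The log2 fold change was 3.10 ± 0.06 in MATIP cells (8.60-fold, adjusted p = 3.62e-19) and 1.06 ± 0.05 in MAflox cells (2.09-fold, adjusted p = 2.99e-12). Once a trend with GC content and length of the transcript was taken out, the MAflox value was 0.64. Of the exon bases of Ftl1, 26.5% are shared with Gm10252 on the opposite strand, and both ferritin genes have processed copies in the annotation (Fth-ps2, Fth-ps3, Ftl1-ps2 and Ftl2-ps). No source used here states the strand setting or how reads with several matches were counted, so the ferritin values are uncertain to that extent.

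Ferritin made up a sizeable part of the treated MATIP transcriptome. Fth1 and Ftl1 together took 3.93% ± 0.0838 of all counts in MATIP 4-OHT cells and 0.386% ± 0.0193 in MATIP EtOH cells (SD, n = 2 each). In MAflox cells they took 0.727% ± 0.0432 with 4-OHT and 0.352% ± 0.00909 with EtOH. Ftl1 was the gene with the most counts in both MATIP 4-OHT libraries and Fth1 ranked 3 in both. With EtOH, Ftl1 ranked 8 and 10 in MATIP libraries and Fth1 ranked 109 and 124. The balance of the chains shifted as well, with a larger rise of the heavy chain than of the light chain. Per base of transcript, the ratio of Fth1 to Ftl1 was 0.678 ± 0.0141 in MATIP 4-OHT cells and 0.280 ± 0.00461 in MATIP EtOH cells. It was 0.524 ± 0.0190 in MAflox 4-OHT cells and 0.360 ± 0.00443 in MAflox EtOH cells, and the libraries of each treated group lay above those of its EtOH group.

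**Figure D2:**
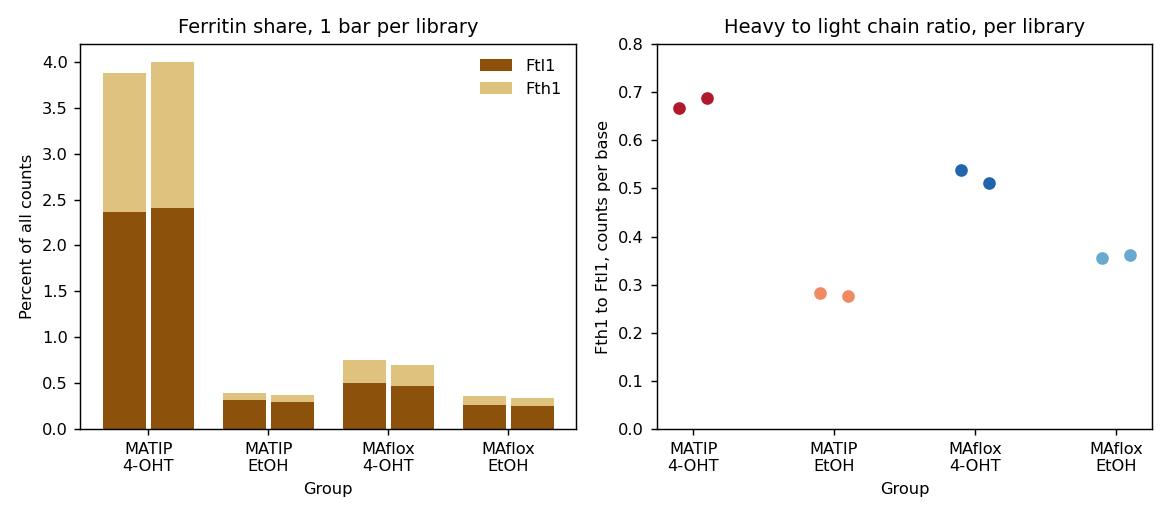
Ferritin in each library. Left, percent of all counts taken by Ftl1 and Fth1, stacked, with 1 bar per library, which reached 3.93% on average in MATIP 4-OHT cells. Right, the ratio of Fth1 to Ftl1 in counts per base of transcript, 1 point per library, which was higher with 4-OHT than with EtOH in both lines.

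The promoters of the 2 ferritin genes are shown because the genes rose together. RefSeq promoter entries (GRCm38.p6, the assembly also called mm10) matched 7 of the 10 genes with 12 start sites, and 250 bases before each start were searched on both strands. Letters in capitals mark the CCAAT box, printed as ATTGG where it lies on the other strand. It occurred once before the Fth1 start shown and at 2 places before that of Ftl1, and 33.8% of the 32851 promoter windows of the table hold it. The other Fth1 start site, not shown, had no match to it. The core of the antioxidant response element, TGACNNNGC, which 10.2% of windows hold, had no match in either window, and this says nothing of sites elsewhere.
Fth1, start site 2, chr19:9982396-9982645, plus strand: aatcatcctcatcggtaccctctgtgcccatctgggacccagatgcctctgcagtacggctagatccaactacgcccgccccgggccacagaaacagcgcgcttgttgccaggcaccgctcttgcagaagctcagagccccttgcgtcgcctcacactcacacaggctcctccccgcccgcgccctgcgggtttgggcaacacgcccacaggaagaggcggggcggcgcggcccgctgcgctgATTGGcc
Ftl1, chr7:45459887-45460136, minus strand: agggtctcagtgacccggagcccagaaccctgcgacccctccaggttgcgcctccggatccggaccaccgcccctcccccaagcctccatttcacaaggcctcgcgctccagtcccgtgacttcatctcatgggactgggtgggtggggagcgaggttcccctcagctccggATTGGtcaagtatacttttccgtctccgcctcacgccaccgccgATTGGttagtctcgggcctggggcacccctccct

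Slc40a1 (chr1:45908068-45926523, minus strand) encodes ferroportin, the known route of iron out of mammalian cells. It had 180.4 and 183 CPM in MATIP 4-OHT libraries, against 24.9 and 24.7 CPM in MATIP EtOH libraries. Its MAflox values were 141 and 146 CPM with 4-OHT, against 5.47 and 6.72 CPM with EtOH. Treated libraries of the 2 lines lay close together while the EtOH libraries of MATIP cells lay well above those of MAflox cells. The log2 fold change was 2.87 ± 0.07 in MATIP cells (7.32-fold, adjusted p = 1.80e-17) and 4.55 ± 0.08 in MAflox cells (23.4-fold, adjusted p = 4.71e-19). It was the largest response of the 10 genes in MAflox cells.

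Hmox1 (chr8:75093621-75100589, plus strand) encodes the inducible heme oxygenase, which cuts heme into biliverdin, carbon monoxide and iron. It had 368 and 385 CPM in MATIP 4-OHT libraries, against 19.0 and 24.7 CPM in MATIP EtOH libraries. MAflox libraries held 145 and 138 CPM with 4-OHT, against 18.8 and 22.6 CPM with EtOH. The EtOH libraries of the lines overlapped and the 4-OHT libraries did not. The log2 fold change was 4.10 ± 0.10 in MATIP cells (17.1-fold, adjusted p = 1.27e-17) and 2.77 ± 0.10 in MAflox cells (6.81-fold, adjusted p = 8.58e-15).

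Blvrb (chr7:27447978-27466144, plus strand) encodes biliverdin reductase B, which reduces flavins and some biliverdin isomers. It had 49.3 and 51.7 CPM in MATIP 4-OHT libraries, against 8.74 and 9.31 CPM in MATIP EtOH libraries. In MAflox cells the values were 31.2 and 30.03 CPM with 4-OHT, against 6.34 and 4.60 CPM with EtOH. Each group stood apart from the others. The log2 fold change was 2.48 ± 0.11 in MATIP cells (5.58-fold, adjusted p = 1.20e-13) and 2.50 ± 0.12 in MAflox cells (5.64-fold, adjusted p = 7.84e-13).

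Slc11a1 (chr1:74375195-74386062, plus strand) encodes NRAMP1, a metal transporter of the phagosome membrane of macrophages and neutrophils. C57BL/6 mice carry a loss-of-function allele of this gene, so its mRNA is no measure of transport. It had 179 and 170.4 CPM in MATIP 4-OHT libraries, against 3.48 and 2.43 CPM in MATIP EtOH libraries. Its MAflox values were 8.52 and 8.70 CPM with 4-OHT, against 1.43 and 1.10 CPM with EtOH. The rise was 60.1-fold in MATIP cells (log2 5.91 ± 0.12, adjusted p = 6.63e-19), the largest of the 10 genes there, and 6.86-fold in MAflox cells (log2 2.78 ± 0.15, adjusted p = 8.85e-12).

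Tfrc (chr16:32608920-32632794, plus strand) encodes the receptor for transferrin-bound iron. It had 349.9 and 336 CPM in MATIP 4-OHT libraries, against 449.9 and 493 CPM in MATIP EtOH libraries. MAflox libraries held 379 and 417 CPM with 4-OHT, against 347 and 363 CPM with EtOH. Treated libraries were thus the lower ones in MATIP cells and the higher ones in MAflox cells, with no overlap within a line. The log2 fold change was -0.46 ± 0.06 in MATIP cells (adjusted p = 1.54e-06) and 0.16 ± 0.06 in MAflox cells (adjusted p = 0.0251). The MAflox call was lost without EtOH library 1 (log2 0.13, adjusted p = 0.168) and without 4-OHT library 2 (log2 0.11, adjusted p = 0.186).

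Slc11a2 (chr15:100387898-100425072, minus strand) encodes DMT1, which moves ferrous iron across the endosome membrane. It had 27.5 and 24.4 CPM in MATIP 4-OHT libraries, against 28.6 and 28.7 CPM in MATIP EtOH libraries. In MAflox cells the values were 16.7 and 15.5 CPM with 4-OHT, against 22.6 and 22.4 CPM with EtOH. It fell in MAflox cells (log2 -0.48 ± 0.09, adjusted p = 1.33e-04) and was not called in MATIP cells (log2 -0.14 ± 0.09, adjusted p = 0.143). With the length and GC trend removed it was called in MATIP cells too (log2 -0.20, adjusted p = 0.0305). Of its exon bases 6.33% are shared with Gm5475 on the opposite strand.

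Ireb2 (chr9:54863789-54912530, plus strand) encodes IRP2, which binds the hairpins shown above and is degraded when iron is plentiful. It had 111 and 100.4 CPM in MATIP 4-OHT libraries, against 125 and 129.7 CPM in MATIP EtOH libraries. Its MAflox values were 105 and 106 CPM with 4-OHT, against 124 and 129 CPM with EtOH. It fell by a like amount in both lines, by 0.27 ± 0.06 on the log2 scale in MATIP cells (adjusted p = 5.13e-04) and by 0.26 ± 0.06 in MAflox cells (adjusted p = 0.00106). With the length and GC trend removed the MAflox call was lost (log2 -0.06, adjusted p = 0.303) and the MATIP value was -0.17, as it also was without MATIP 4-OHT library 2.

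Ncoa4 (chr14:32159865-32179855, plus strand) encodes the receptor that carries ferritin to the lysosome for iron release. It had 308 and 300.3 CPM in MATIP 4-OHT libraries, against 172 and 173 CPM in MATIP EtOH libraries. MAflox libraries held 218 and 207 CPM with 4-OHT, against 157 and 161 CPM with EtOH. It rose in both lines without overlap, by 1.76-fold in MATIP cells (log2 0.82 ± 0.05, adjusted p = 5.33e-11) and by 1.34-fold in MAflox cells (log2 0.42 ± 0.05, adjusted p = 1.32e-06).

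**Figure D3:**
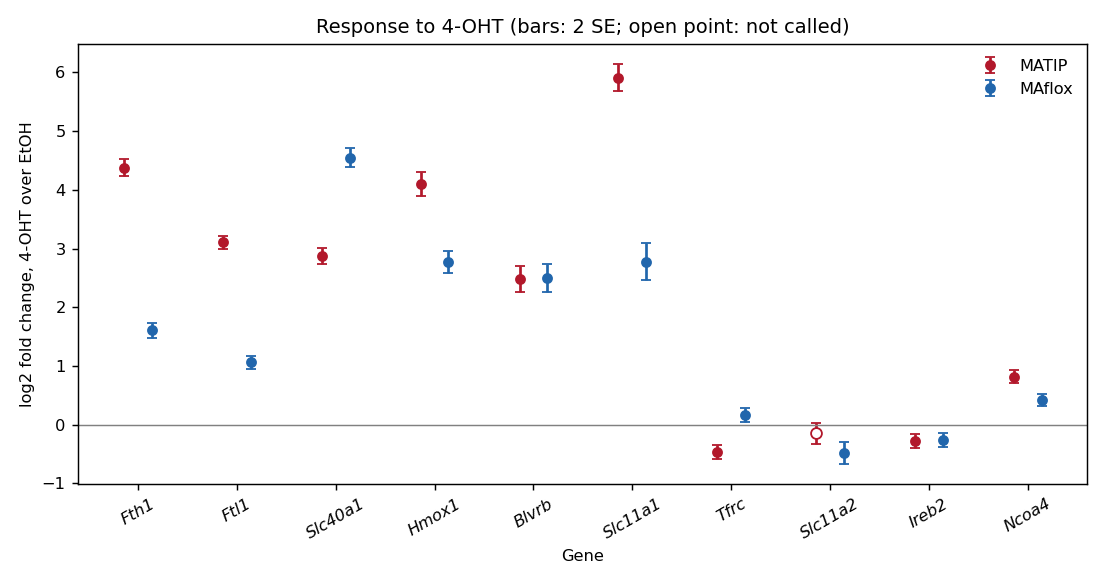
Log2 fold change of 4-OHT over EtOH for each gene in MATIP (red, left of each pair) and MAflox (blue). Bars span 2 SE on each side of the estimate and the open point, Slc11a2 in MATIP cells, was not called. Fth1, Ftl1, Hmox1, Slc11a1 and Ncoa4 had the larger response in MATIP cells and Slc40a1 the larger in MAflox cells.

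The difference of the responses, MATIP minus MAflox, compared the response to 4-OHT between the lines. Kat5 fell in MATIP cells (log2 -2.32 ± 0.09) and rose in MAflox cells (0.50 ± 0.07). Kmt2a rose in MATIP cells (0.40 ± 0.15) and fell in MAflox cells (-1.13 ± 0.16). Mllt10 fell in both lines (-0.90 ± 0.06 and -0.35 ± 0.06). Loss of Kat5 and other differences between the lines cannot be told apart here. The response differed for 8 of the 10 genes, 6 higher and 2 lower in MATIP cells, where 28.3% of all tested genes were higher, 33.6% were lower and 61.9% were called. At least 2-fold, 4 were higher and 1 was lower, where 14.9% and 11.4% of tested genes were. The response of Slc11a1 was larger by 3.13 ± 0.23 on the log2 scale (adjusted p = 9.28e-10), that of Fth1 by 2.77 ± 0.09 (adjusted p = 2.92e-14) and that of Ftl1 by 2.04 ± 0.08 (adjusted p = 1.52e-13). For Hmox1 the difference was 1.33 ± 0.13 (adjusted p = 4.94e-08) and for Ncoa4 it was 0.40 ± 0.08 (adjusted p = 1.54e-04). Slc40a1 went the other way at -1.68 ± 0.11 (adjusted p = 1.36e-10), as did Tfrc at -0.62 ± 0.09 (adjusted p = 4.47e-06). The difference of Slc11a2 was 0.33 ± 0.13 (adjusted p = 0.0282), and that call was lost with the length and GC trend removed and in 6 of the 8 fits that left out 1 library. Blvrb differed by -0.01 ± 0.16 (adjusted p = 0.952) and Ireb2 by -0.01 ± 0.09 (adjusted p = 0.905), and neither was called.

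Before treatment the lines already differed for some of these genes. With EtOH, 6 of the 10 genes were higher in MATIP than in MAflox cells and none was called lower by edgeR (with no filter on low counts, Fth1 was called lower at log2 -0.13), where 20.3% of all tested genes were higher, 11.7% were lower and 32.0% were called. At an unadjusted p below 0.05 the count was also 0, as it was by DESeq2. At least 2-fold, 2 were higher and 0 lower, where 4.49% and 3.58% of tested genes were. Slc40a1 was 4.04-fold higher (log2 2.02 ± 0.09, adjusted p = 1.47e-12) and Slc11a1 2.32-fold higher (log2 1.21 ± 0.18, adjusted p = 3.55e-05). Blvrb (log2 0.74 ± 0.12), Tfrc (0.41 ± 0.06), Slc11a2 (0.35 ± 0.09) and Ftl1 (0.26 ± 0.05) were higher by less than 2-fold. Fth1, Hmox1, Ireb2 and Ncoa4 were not called. Markers of other cell types differed in the same comparison: 10 of 11 tested macrophage markers (median log2 1.001) and 9 of 11 neutrophil markers (median 1.93) were higher in MATIP EtOH cells, and 4 of 7 mast cell and basophil markers were lower (median -3.85). Their part in these values was not tested. The baseline and the treatment responses share the EtOH libraries, so they are not independent of each other.

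Across the 4 groups the genes kept a few recurring orders. Slc40a1, Slc11a1, Hmox1, Ftl1, Ncoa4 and Blvrb were highest in MATIP 4-OHT cells, then in MAflox 4-OHT, MATIP EtOH and MAflox EtOH cells, and of these neighbours the EtOH groups overlapped for Hmox1. Fth1 had the same order except that MAflox EtOH lay above MATIP EtOH. Tfrc was highest in MATIP EtOH cells and lowest in MATIP 4-OHT cells, whose libraries overlapped with those of MAflox EtOH. Slc11a2 was highest in MATIP EtOH cells, then in MATIP 4-OHT, MAflox EtOH and MAflox 4-OHT cells, and no neighbours overlapped. Ireb2 was lower in the 4-OHT groups, which overlapped each other, than in the EtOH groups, which also did. Per length of transcript, the mean levels in MATIP 4-OHT cells were 25988 CPM per kilobase for Ftl1, 17624 for Fth1, 239.9 for Hmox1 and 91.0 for Ncoa4, and Slc11a2 was lowest at 8.58. In MATIP EtOH cells Ftl1 had 3023 and Fth1 848 CPM per kilobase, followed by Tfrc at 96.4, and Slc11a1 was lowest at 1.28.

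The genes whose patterns were most like a member's were found by the root mean square difference of log2(CPM + 0.5), each gene centred on its own mean over the 8 libraries. The 9501 candidates were tested genes with a mean of at least 5 CPM, without predicted genes (Gm and Rik symbols) and the 10 genes themselves. The added 0.5 compresses the fold differences of genes with low counts. Fth1 lay closest to Egr1 (0.141), Clec4d (0.152) and Agpat4 (0.173), and Ftl1 to Tbc1d2 (0.110), Sirpa (0.144) and Ms4a6d (0.146). Egr1 was such a low gene, at 19.3 CPM in MATIP 4-OHT cells and 0.442 CPM in MATIP EtOH cells. Agpat4 had 40.1 CPM in MATIP 4-OHT cells and 1.57 CPM in MATIP EtOH cells. Egr1 and Agpat4 reached the minimum mean only through MATIP 4-OHT, where Fth1 is also highest. Their places are thus partly set by the filter and the added 0.5. Hmox1 lay closest to Slc31a2 (0.162), Plaur (0.174) and Cd200r1 (0.188), Slc11a1 to Fstl1 (0.206), Plekhg1 (0.207) and Mrc1 (0.264), and Blvrb to Btg2 (0.137), Itgb2 (0.171) and Zbp1 (0.174). Zbp1 had 13.2 CPM in MATIP 4-OHT cells and 1.62 CPM in MATIP EtOH cells. It also reached the minimum mean only through MATIP 4-OHT, where Blvrb is highest, so its place is partly set in the same way. The nearest gene to Slc40a1 was Mcemp1 at 0.316. For Tfrc the nearest was Agps (0.0504), for Slc11a2 Abhd17c (0.0426), for Ireb2 Cox15 (0.0360) and for Ncoa4 Casp8 (0.0381). Among the 10 genes themselves, Fth1 was nearer to Ftl1 (0.490) than to Hmox1 (0.520), and Tfrc and Ireb2 were the nearest pair (0.174). The measure is not scaled for the size of a change, so genes that change little lie near each other. In MAflox cells Tfrc and Ireb2 responded in opposite directions (log2 0.16 and -0.26).

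Other genes of iron and heme metabolism were read from 8 lists of 104 genes, of which 94 passed the filter. In MATIP cells 50 of the 94 rose and 32 fell, where 37.5% and 38.6% of all tested genes did, so the count of falls was not above the background. In MAflox cells 42 rose and 30 fell, where 33.1% and 32.1% of all tested genes did. The counts of the single lists below stand against these same shares. Of the 10 tested genes of iron uptake and reduction, 6 rose and 4 fell in each line. Ltf (lactoferrin) and Lcn2 (lipocalin 2), iron-binding proteins of neutrophil granules that also stand in the neutrophil marker list, rose with the smallest p-values of the list. Lcn2 had 2072 ± 86.9 CPM in MATIP 4-OHT cells and 32.7 ± 7.38 CPM in MATIP EtOH cells. Trf, transferrin itself, rose by log2 2.08 ± 0.08 in MATIP cells and 0.98 ± 0.08 in MAflox cells. Hfe, which modulates iron sensing at the cell surface, fell by 1.34 ± 0.13 in MATIP cells and by 0.34 ± 0.13 in MAflox cells, and the endosomal iron reductase Steap3 fell by 0.74 ± 0.09 and by 1.18 ± 0.09.

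In the list of iron storage, export and regulation 6 of 10 tested genes rose and 4 fell in MATIP cells, and 3 rose and 5 fell in MAflox cells, with the falls in MATIP cells and the rises in MAflox cells near the shares of all tested genes (38.6% and 33.1%). Fbxl5, the iron-sensing ubiquitin ligase subunit that directs degradation of the Ireb2 product, had 645 ± 12.4 CPM in MATIP 4-OHT cells and 49.0 ± 1.97 CPM in MATIP EtOH cells. Its log2 fold change was 3.72 ± 0.06 in MATIP cells and 2.45 ± 0.06 in MAflox cells, more than that of any other gene of the list past the threshold in both lines. Heph, a membrane ferroxidase that works with ferroportin in the gut, had 10.5 ± 0.0664 CPM in MATIP 4-OHT cells and 0.0435 ± 0.0615 CPM in MATIP EtOH cells. It lay at 0.0106 ± 0.0149 CPM in MAflox 4-OHT cells and at 0 in MAflox EtOH cells. The iron chaperone Pcbp1, which delivers iron to ferritin, fell by 1.27 ± 0.05 in MATIP cells and by 0.35 ± 0.05 in MAflox cells. Nedd4, a ubiquitin ligase, fell by 0.70 ± 0.06 and by 0.68 ± 0.06. Hamp, which encodes the hormone hepcidin, had 27 counts over all 8 libraries and was not tested.

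Of the 12 heme synthesis genes 4 rose and 5 fell in MATIP cells and 6 rose and 2 fell in MAflox cells, with median log2 fold changes of -0.22 and 0.14. The MATIP counts were near the shares of all tested genes that rose (37.5%) and fell (38.6%). Alas1, the enzyme of the first step outside the erythroid lineage, rose by 0.85 ± 0.07 in MATIP cells and 1.30 ± 0.07 in MAflox cells. Cpox, an enzyme of a later step, fell by 0.89 ± 0.07 in MATIP cells and by 0.27 ± 0.07 in MAflox cells. Of the 18 genes for mitochondrial iron and iron-sulfur clusters 12 fell and 1 rose in MATIP cells, and 7 fell and 4 rose in MAflox cells, with medians of -0.61 and -0.14. Of all tested genes 38.6% fell in MATIP cells and 32.1% in MAflox cells, and the MAflox count was near that share. Hspa9, a mitochondrial chaperone of cluster transfer, fell by 1.64 ± 0.06 in MATIP cells and by 1.11 ± 0.06 in MAflox cells. Glrx5, a glutaredoxin of cluster transfer, fell by 0.94 ± 0.08 in MATIP cells and by 0.28 ± 0.08 in MAflox cells. The difference of responses was lower in MATIP cells for 12 of the 18, where 33.6% of all tested genes were lower.

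Of the 13 genes of heme transport and scavenging 9 rose and 3 fell in MATIP cells, and 5 rose and 7 fell in MAflox cells, where 37.5% of all tested genes rose in MATIP cells and 33.1% in MAflox cells, the MAflox count of rises being near its share. Lrp1, the receptor for hemopexin-bound heme among other ligands, had 438 ± 23.4 CPM in MATIP 4-OHT cells and 48.7 ± 3.83 CPM in MATIP EtOH cells (log2 3.17 ± 0.11). In MAflox cells it had 18.9 ± 5.15 CPM with 4-OHT and 23.0 ± 1.03 CPM with EtOH. That fall was called close to the threshold (log2 -0.28 ± 0.12, edgeR adjusted p = 0.0444). Abcc5, a heme exporter in mice and other animals, rose by 3.02 ± 0.08 in MATIP cells and 2.13 ± 0.08 in MAflox cells, and Mfsd7c by 3.89 ± 0.21 and 2.05 ± 0.29. Among 10 tested genes of heme breakdown and its regulators 7 rose and 1 fell in MATIP cells, and 6 rose and 1 fell in MAflox cells. Nfe2l2, which encodes NRF2, an activator of Hmox1 and ferritin genes, rose by 1.20 ± 0.06 in MATIP cells and 0.46 ± 0.06 in MAflox cells. Bach1, a heme-sensing repressor of the same genes, rose as well, by 0.88 ± 0.06 in MATIP cells and 0.37 ± 0.06 in MAflox cells. Keap1, which targets NRF2 for degradation, fell by 0.72 ± 0.06 in MATIP cells and was not called in MAflox cells (log2 -0.11 ± 0.06, adjusted p = 0.0911).

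NRF2 targets outside iron handling rose in MATIP cells in 12 of 12 cases, with a median log2 fold change of 1.36, where 37.5% of all tested genes rose. In MAflox cells 8 rose and 2 fell, with a median of 0.51, where 33.1% of all tested genes rose. Nqo1, a quinone reductase, had 172 ± 7.38 CPM in MATIP 4-OHT cells and 5.12 ± 0.317 CPM in MATIP EtOH cells (log2 5.07 ± 0.09), and rose by 2.13 ± 0.07 in MAflox cells. Srxn1, which repairs oxidised peroxiredoxins, rose by 3.06 ± 0.06 in MATIP cells and 0.36 ± 0.06 in MAflox cells. Prdx1, a peroxiredoxin, rose by 2.34 ± 0.06 in MATIP cells and was not called in MAflox cells (log2 -0.13 ± 0.06, adjusted p = 0.0786). The difference of responses was higher in MATIP cells for 10 of the 12 and lower for 1, where 28.3% and 33.6% of all tested genes were.

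**Figure D4:**
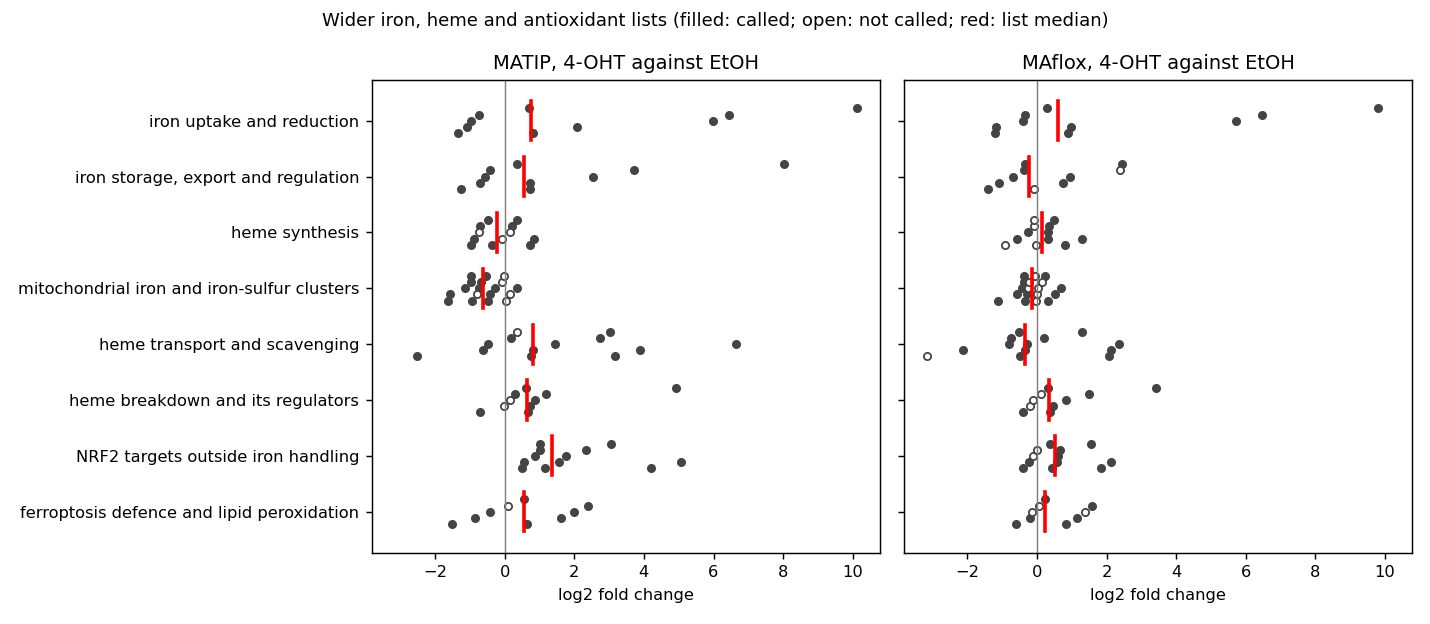
Log2 fold change of 4-OHT over EtOH for the 94 tested genes of 8 lists in MATIP (left) and MAflox (right) cells. Filled points were called, open points were not, and red bars are list medians, which for NRF2 targets were 1.36 and 0.51 and for mitochondrial iron and iron-sulfur cluster genes were -0.61 and -0.14.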

How the data were processed

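The deposited count table holds the authors' whole-number read counts per gene symbol, without normalization. They were made with HISAT2 2.1.0 and featureCounts 1.6.4 after Trimmomatic 0.38.0, on mm10, and DESeq2 was used, per the submitters' processing notes. No source used here gives the strand setting, the annotation or the treatment of reads with several matches. The other deposited table gives the authors' adjusted p-values and log2 fold changes of 4-OHT against ethanol for each line, per the file headers. Groups and replicate numbers came from the sample titles.

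After filterByExpr with the 4 groups (at least 10 counts, and 15 in total) genes were tested with the edgeR 4.0.16 quasi-likelihood test in R 4.3.3, with TMM scaling, 1 coefficient per group over all 8 libraries, no covariate and 4 residual degrees of freedom. The test added a median of 14.3 prior degrees of freedom from the spread shared across genes, so small p-values rest largely on that spread. P-values were adjusted by Benjamini-Hochberg over the 13722 genes of a contrast. SE was taken as the absolute log2 fold change divided by the root of F. Within groups, libraries differed beyond sampling noise (chi-square per degree of freedom of 7.33 to 13.6) and none were merged. The script was tested on simulated data first. Levels per length use the first GENCODE M21 transcript of each gene.

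The 10 genes and the lists were chosen with earlier results of these data known. From each list the text names genes among the 4 called with the smallest p in a treatment contrast or with the highest mean of a group, and Hamp, chosen after its values were seen. Some genes that this rule names are not reported here. Of the markers, Ahsp and Ly6g were not matched to the table. Alternatives were other scaling (DESeq2 1.42.0 size factors), the DESeq2 test, other filters, a fit of only the libraries compared, a replicate block, library sizes without the 20 most abundant genes, a length and GC trend, each library left out, and a 2-fold threshold.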

Additional observations from a re-analysis of the deposited data

Results flagged for a closer look

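The response to 4-OHT differed between MATIP and MAflox cells, by the test of the difference itself, for 8 of the 10 genes. On the log2 scale, MATIP minus MAflox, the difference was 3.13 for Slc11a1, 2.77 for Fth1, 2.04 for Ftl1, 1.33 for Hmox1, 0.40 for Ncoa4, 0.33 for Slc11a2, -0.62 for Tfrc and -1.68 for Slc40a1. Over all tested genes 61.9% were called in this comparison. The 11 tested macrophage markers, all higher with 4-OHT in both lines, had a median difference of 2.77. The 11 neutrophil markers, also all higher with 4-OHT in both lines, had a median difference of -0.60, with 2 higher and 6 lower in MATIP cells. The part of either list in these values was not tested.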

How the results depend on the processing

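Of 630 values of the 10 genes under up to 16 alternatives, 583 kept their direction and their side of the threshold. The calls that did not are named in the report for Tfrc, Ireb2 and Slc11a2, and here for Fth1 and Hmox1. With the length and GC trend removed the genes called lower in MAflox cells numbered 1 in place of 2. At a 2-fold threshold those called lower were 0 in MATIP cells, 0 in MAflox cells and 1 for the difference of responses, and 2 were higher in MATIP EtOH than in MAflox EtOH cells. The wider lists then held 27 genes higher and 8 lower in MATIP cells, and 16 higher and 6 lower in MAflox cells, by construction of the threshold. With no filter on low counts 1 gene, Fth1, was lower in MATIP EtOH cells (log2 -0.13, adjusted p = 0.0337). Hmox1 in EtOH ranged over the fits without 1 library from -0.12 to 0.25, and was called without MATIP EtOH library 1 (adjusted p = 0.0473).

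Reversals concerned values near 0 that were not called. The difference of responses of Ireb2 was 0.0585 with DESeq2 size factors, 0.0584 with the DESeq2 test, 0.00257 with no filter, 0.0251 with the stricter filter and 0.0129 without the 20 most abundant genes, and -0.0564 to 0.0755 without 1 library. That of Blvrb was 0.0578, 0.0610, 0.00217, 0.0244 and 0.0124 under the same alternatives, 0.219 with the length and GC trend removed, and -0.264 to 0.199 without 1 library. Ireb2 in EtOH was -0.0148, -0.0148, -0.0193, -0.000279 and -0.0193 under those 5 alternatives, -0.0247 in the fit of only the libraries compared, and -0.0195 to 0.0396 without 1 library. The cause was not tested.

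Replicate numbers are shared across groups, but with 2 numbers per group and correlations of replicate differences of -0.0916 in MATIP cells, -0.0118 in MAflox cells and 0.217 between the EtOH groups of the lines (and -0.147 between MAflox EtOH and MATIP 4-OHT, not compared directly) they are not taken to pair the samples. With a replicate block 7 genes still rose in MATIP cells and 8 in MAflox cells, and calls over all genes were 10324 and 8856 against 10441 and 8947 without it. For the EtOH groups they were 4249 against 4388. DESeq2 size factors moved the median of all tested genes to 0.08 in MATIP cells, and with no filter on low counts it was 0.10. Limits are 2 libraries per group, relative counts, and mRNA levels that do not show translation of ferritin.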

Other observations

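A list on ferroptosis, cell death by iron-driven lipid peroxidation, held genes of defence and genes that promote it. Of its 9 tested genes 5 rose and 3 fell in MATIP cells, where 37.5% of all tested genes rose and 38.6% fell. In MAflox cells 4 rose and 2 fell, a total near the 65.2% of all tested genes that were called. The median log2 fold changes were 0.56 and 0.23. The risers in MATIP cells include Lpcat3 (0.56 ± 0.07) and Alox15 (1.63 ± 0.60), which make or oxidise the lipids concerned and were chosen here after their values were seen. Alox15 was barely detected, at 0.689 ± 0.170 CPM in MATIP 4-OHT cells and 0.228 ± 0.109 CPM in MATIP EtOH cells. Aifm2 (FSP1), which regenerates reduced coenzyme Q, rose by 1.99 ± 0.10 in MATIP cells and 1.57 ± 0.10 in MAflox cells. Gch1, the first enzyme of tetrahydrobiopterin synthesis, rose by 2.40 ± 0.13 and 0.83 ± 0.15. Gpx4, the glutathione peroxidase of lipid hydroperoxides, rose by 1.16 ± 0.06 in MAflox cells, and its level was 241 CPM in MATIP 4-OHT cells and 154 CPM in MATIP EtOH cells. Dhodh, a mitochondrial reductase of coenzyme Q, fell by 1.51 ± 0.09 in MATIP cells and by 0.59 ± 0.08 in MAflox cells.

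In the authors' deposited table the log2 fold changes of the 10 genes have the signs found here. The authors' deposited table gives 4.41 for Fth1 and 5.85 for Slc11a1 in MATIP cells. For Slc11a2 in MATIP cells the authors' deposited table gives -0.10 with an adjusted p of 0.469.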
